A study of Bos taurus with 12 samples.

Results

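The 36 genes described here encode the core machinery of autophagy in the cow, from the kinase that starts it to the transcription factors that govern it. They were chosen by name and ordered by the step at which they act. All 36 were found once each among the 27270 genes of the deposited tables. All 36 also passed the minimum of 10 counts in at least 4 of the 12 libraries, which 14481 genes passed, so none was set aside. The member nearest to that minimum was MITF, with 22 to 163 counts per library, followed by ATG10 with 27 to 102. By step, the list holds 5 initiation genes, 9 genes of nucleation and membrane supply, 15 conjugation genes, 4 cargo receptors and 3 transcription factors.

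Autophagy encloses cytoplasm, damaged organelles or lipid droplets in a double membrane, the autophagosome, which then fuses with a lysosome. A kinase complex starts the process, a lipid kinase complex marks the membrane, lipid transfer proteins enlarge it, and a conjugation system attaches ATG8 proteins (the LC3 and GABARAP families) to its lipid so that receptors can bring cargo to it. In the corpus luteum, the transient gland that makes progesterone after ovulation, autophagy is known as a process of both the working and the regressing gland, and prostaglandin F2α (PGF2α) is the hormone that starts regression.

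Whole corpora lutea of 12 cows of mixed breed gave 1 RNA library each, so the cow is the replicate. All cows had synchronised cycles, for which the study's methods give earlier PGF2α injections, and all were at day 10 of the luteal phase. Of these, 4 control cows received saline and 8 received a luteolytic dose of PGF2α in the muscle, and the glands of the treated cows were removed with the ovaries 4 h later in 4 of them and 12 h later in the other 4. The comparisons at 4 h and at 12 h share the same 4 control cows. The sample labels give no time from saline to removal for these cows. Time since injection therefore cannot be told apart from PGF2α. Transcript level in tissue does not measure autophagic flux, and in whole tissue fewer cells of a type and less RNA per cell cannot be told apart.

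Total expected counts were 10263310 to 22600213 per library in controls, 15527149 to 22352909 at 4 h and 12471493 to 17880450 at 12 h. The software that estimated the counts, RSEM, also gives each gene an effective length. Its mean weighted by level was 1529 to 1628 bases in controls, 1523 to 1647 at 4 h and 1314 to 1478 at 12 h. The 12 h libraries lay apart from the controls. Mitochondrially encoded transcripts took 6.77% to 10.0%, 7.78% to 10.2% and 7.22% to 14.1% of counts. The tissue label fits its markers, since all 8 steroidogenic luteal markers were expressed, with a summed level of 30916 to 48021 TPM (a level scaled to transcript length and to the library) in controls, 29121 to 33999 at 4 h and 14781 to 27107 at 12 h, and 6 of the 8 fell at 12 h. Over the same groups the 12 macrophage markers summed to 204 to 636, 256 to 509 and 526 to 820 TPM, and 8 of them rose at 12 h. The 9 neutrophil markers summed to 14.3 to 33.8, 29.1 to 138 and 87.0 to 260 TPM. Of the 7 tested, 1 rose at 4 h and 6 at 12 h. MPO was at 0 in all control and 4 h cows and ELANE at 0 in all 12 h cows. Over all cell types, 6 of the 72 tested markers rose at 4 h and 5 fell, beside 8.65% and 5.59% of all tested genes. Besides the neutrophil one, the 4 h risers were 2 endothelial, 1 macrophage and 2 pericyte and smooth muscle markers. Those lower at 4 h were 2 steroidogenic, 2 endothelial and 1 lymphocyte markers. At 12 h, 4 of 10 fibroblast, 3 of 12 endothelial, 2 of 10 pericyte and smooth muscle and 1 of 12 lymphocyte markers and the 1 tested erythrocyte marker rose, while 1 endothelial and 1 pericyte and smooth muscle marker fell. Of all tested genes, 23.6% rose and 25.3% fell at 12 h. The 12 h counts were also taken without 4 h cow6455 and 12 h cow6314. In that fit 6 macrophage, 5 neutrophil, 1 fibroblast, 1 endothelial, 1 steroidogenic and 1 pericyte and smooth muscle markers rose. The lymphocyte and erythrocyte risers stayed at 1 each. In the same fit 6 steroidogenic, 2 pericyte and smooth muscle and 1 endothelial markers fell. Of all 14481 tested genes, 3284 rose and 3796 fell in it. The part of these shifts in the changes below was not tested.

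Autophagy genes changed in both directions, with 12 genes past the test at 4 h and 23 at 12 h. At 4 h post-PGF2α, 9 of the 36 members rose and 3 fell (edgeR quasi-likelihood test on counts scaled by TMM, Benjamini-Hochberg adjusted p under 0.05 over all genes tested), beside 8.65% and 5.59% of all tested genes. The risers were ULK1, RB1CC1, ATG2A, WIPI2, ATG4B, GABARAPL1, GABARAPL2, SQSTM1 and TFE3, and UVRAG, ATG4C and OPTN fell. The number of risers depended on single cows. It was 4 without control cow4285 or cow6464, 3 without control cow7367 or cow7514, 2 without 4 h cow5341 and 5 without 12 h cow7475. A 12 h cow enters the 4 h comparison through the scaling and the estimate of spread, which all libraries of a fit share. UVRAG, GABARAPL1, OPTN and TFE3 were called under every alternative and with every cow left out.

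At 12 h post-PGF2α, 17 members rose and 6 fell, beside 23.6% and 25.3% of all tested genes. As shares of the 36 genes these are 47.2% and 16.7%. The median log2 fold change of the members was 0.24 and that of all tested genes 0.01. On the log2(TPM + 1) scale the members' median was -0.05 and that of all genes -0.25, and limma called 13 members as higher and 14 as lower, beside 10.4% and 38.9% of all tested genes. The direction of small 12 h changes therefore rests on the scale between libraries. The calls of 18 of the 23 genes were kept under every alternative and with every cow left out; the exceptions were ATG2A, WIPI2, ATG4B, ATG10 and ATG12.

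Between 4 h and 12 h, 10 members were higher at 12 h and 5 were lower, beside 22.5% and 24.3% of all tested genes (46.7% either way). TPM values of the 4 cows at 12 h all lay above those of the 4 control cows for 12 members and all below for 12, beside 9.12% and 34.9% of tested genes. At 4 h the same counts were 6 and 6, beside 8.31% and 10.7%, and 12 h against 4 h they were 9 and 12, beside 8.62% and 30.3%.

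**Figure D1:**
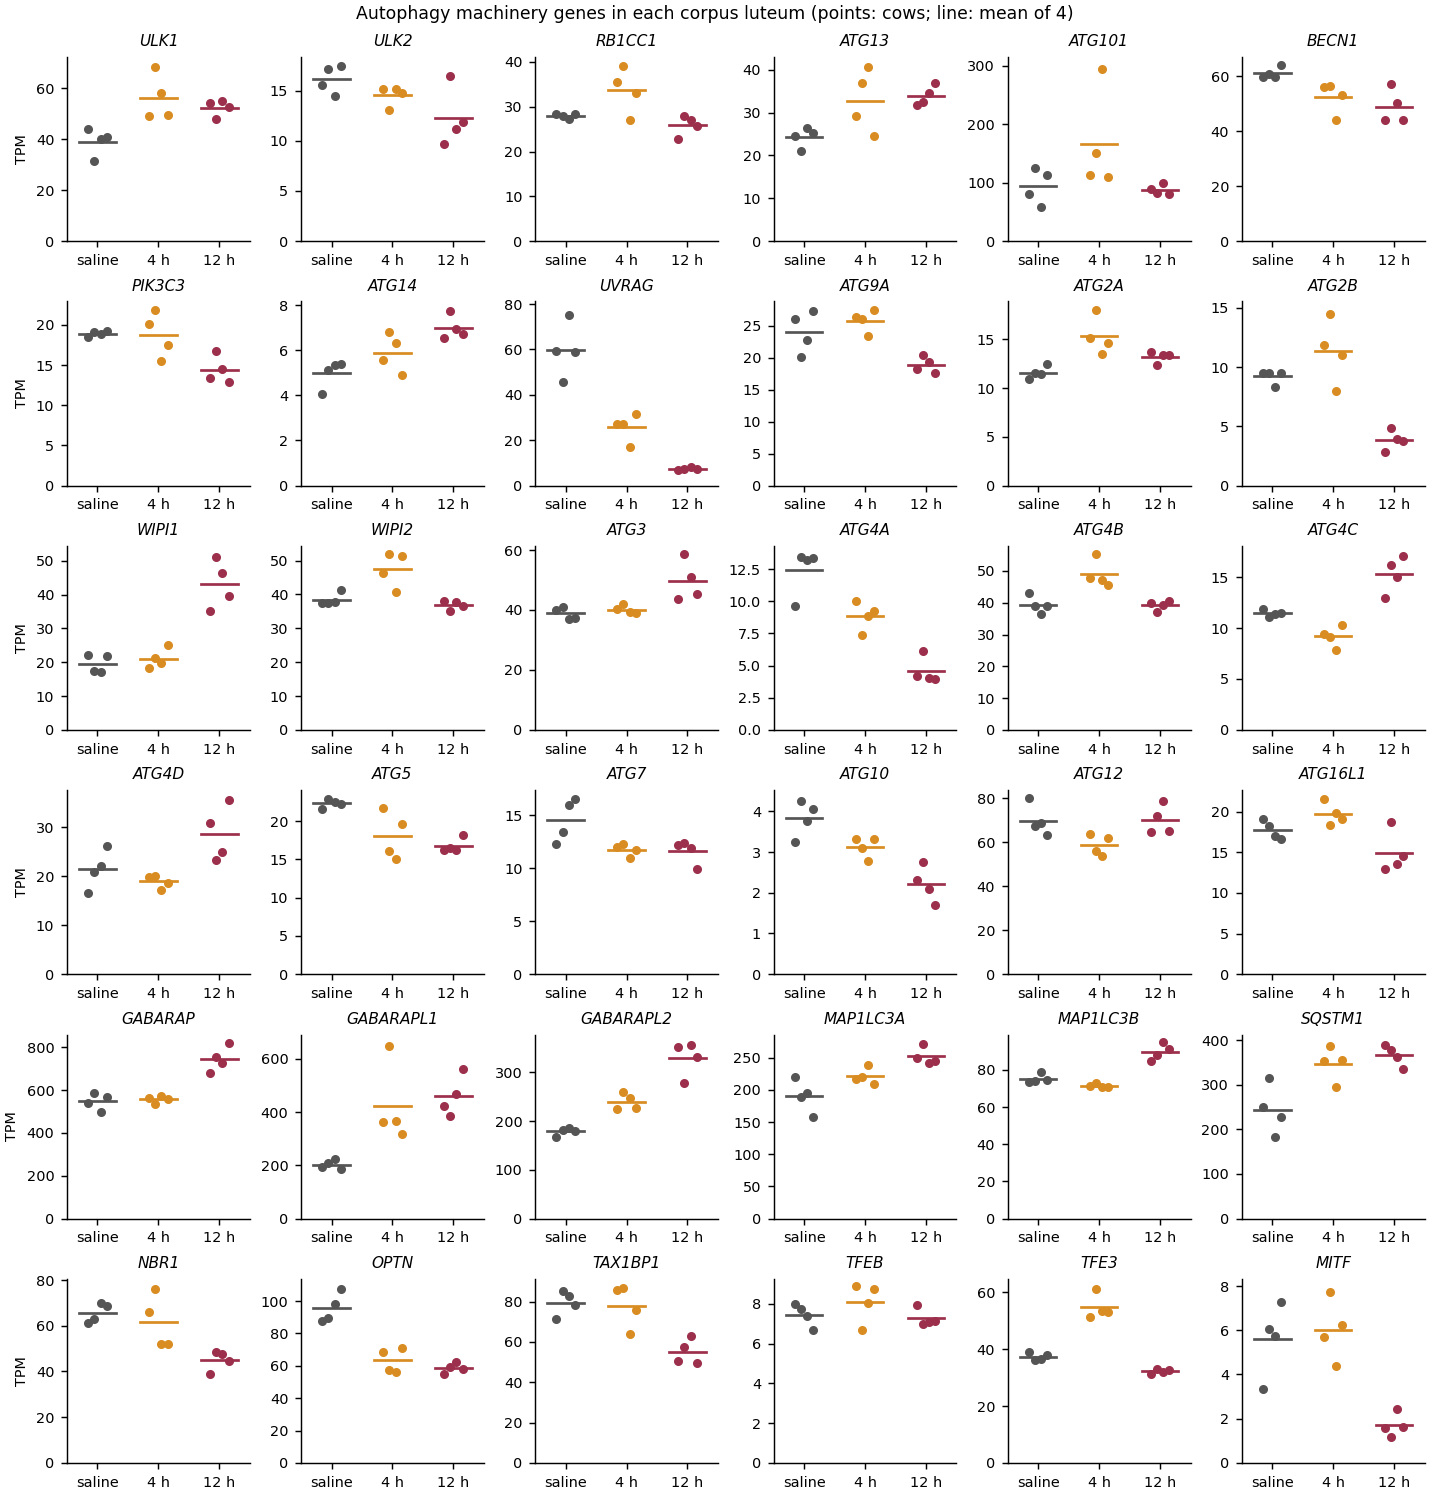
Level of each of the 36 genes in each cow, in TPM on an axis that starts at 0, with a line at the mean of 4 cows. UVRAG falls from 45.6 to 75.4 TPM in saline cows to 7.01 to 7.98 at 12 h, and WIPI1, GABARAPL2 and MITF at 12 h also lie apart from saline.

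**Figure D2:**
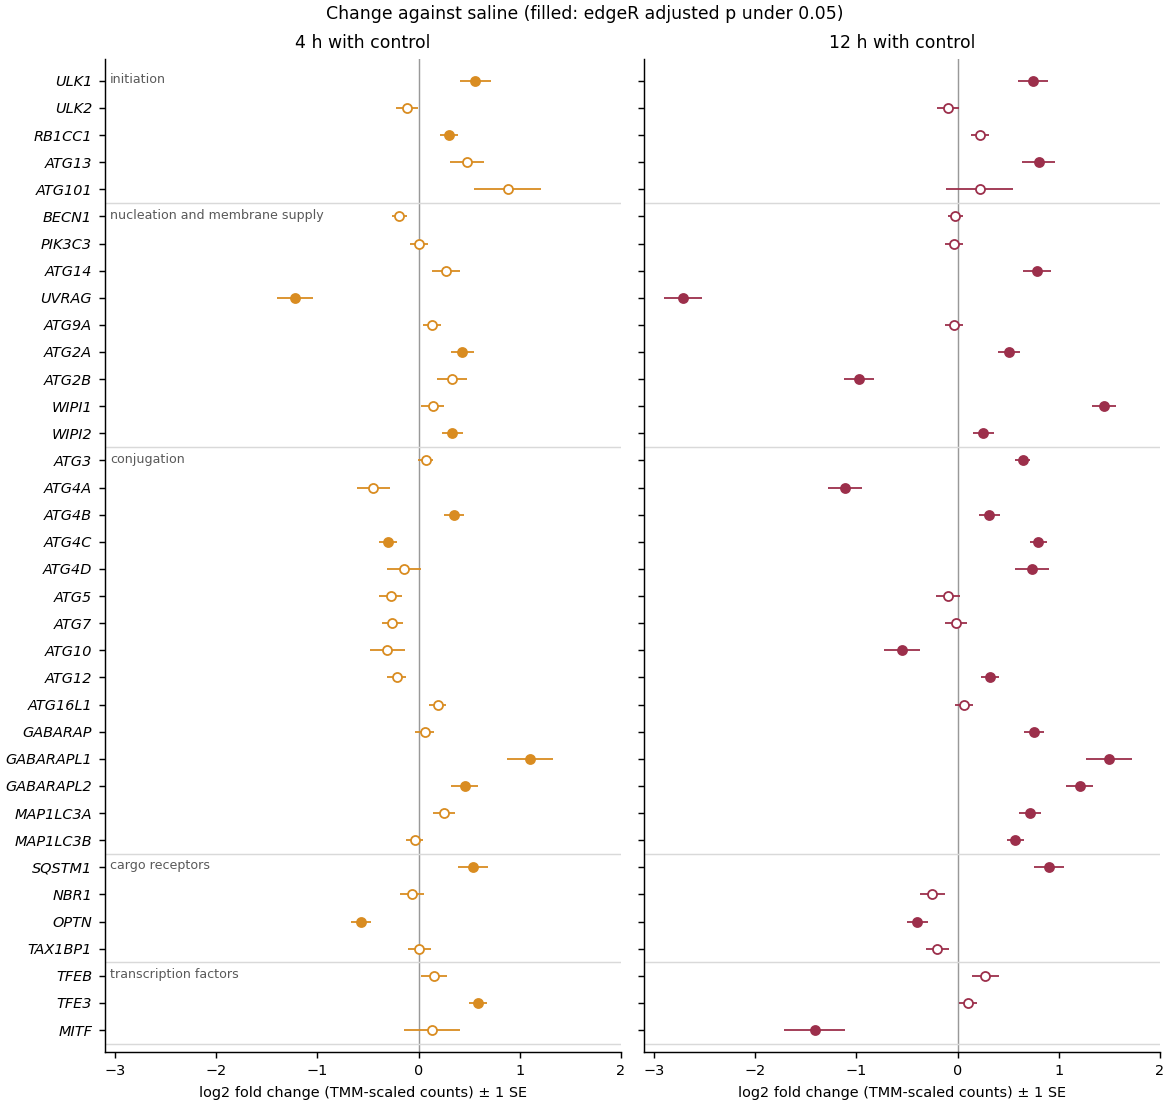
Log2 fold change (TMM-scaled counts, ± 1 SE) of the 36 genes against the 4 saline cows, at 4 h on the left and at 12 h on the right, ordered by step, with filled points for an edgeR adjusted p under 0.05. At 12 h there are 17 filled points to the right of 0 and 6 to the left.

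Baseline levels spanned a wide range. In control cows the ATG8 gene GABARAP stood highest, at 547 ± 40.3 TPM (SD, n = 4 here and in every mean below). SQSTM1 followed at 244 ± 54.6, then GABARAPL1 at 203 ± 17.5, MAP1LC3A at 190.5 ± 25.6 and GABARAPL2 at 179 ± 8.23 TPM, neighbours whose cows overlapped in level. The lowest were ATG14 at 4.98 ± 0.634 and ATG10 at 3.83 ± 0.437 TPM.

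At the initiation step, the kinase ULK1, which phosphorylates the other members of its complex and the lipid kinase complex downstream, rose at both times. Its level was 44.0, 31.4, 39.9 and 40.9 TPM in control cow4285, cow6464, cow7367 and cow7514, the order used for controls throughout. It was 49.1, 68.2, 58.1 and 49.3 TPM in 4 h cow4291, cow5341, cow6455 and cow6456, and 54.2, 47.9, 54.7 and 52.6 TPM in 12 h cow5266, cow6314, cow7382 and cow7475, again the order used below. Every treated cow lay above every control. The change was 1.48-fold at 4 h (log2 fold change 0.56, SE 0.15, edgeR adjusted p = 0.0263) and 1.67-fold at 12 h (log2 fold change 0.74, SE 0.15, edgeR adjusted p = 0.00142). At 4 h the adjusted p of ULK1 was 0.0551 to 0.0739 without control cow6464 or cow7514 or 4 h cow5341 or cow6455, and 0.0587 with an offset that removes the trend with transcript length in each library.

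ATG13, the adaptor subunit that binds ULK1, was at 24.5, 20.97, 26.4 and 25.2 TPM in saline cows, 29.1, 36.8, 40.7 and 24.6 at 4 h and 31.9, 32.4, 34.5 and 37.0 at 12 h. The 4 h cows spread from within the control range to above the 12 h range, while all 12 h cows lay above all controls. It rose at 12 h (log2 fold change 0.80, SE 0.17, edgeR adjusted p = 0.00188), with a log2 fold change of 0.48 and an edgeR adjusted p of 0.0769 at 4 h.

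RB1CC1 (FIP200), the scaffold of the complex, was at 28.4, 27.9, 27.3 and 28.4 TPM in saline cows, 35.6, 39.1, 27.1 and 33.0 at 4 h and 22.9, 27.9, 26.9 and 25.6 at 12 h. Of the 4 h cows 3 lay above the narrow control range and cow6455 just below it. RB1CC1 rose at 4 h (log2 fold change 0.30, SE 0.09, edgeR adjusted p = 0.0437) and not at 12 h (log2 fold change 0.22, edgeR adjusted p = 0.0608). The 4 h call of RB1CC1 was lost without any 1 of the control cows, without 4 h cow4291, cow5341 or cow6456, and without 12 h cow5266 or cow7475 (adjusted p 0.0502 to 0.0964), and under 5 alternatives (0.0603 to 0.171).

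ULK2, the ULK1 paralog, and ATG101, which stabilises ATG13, passed the test in no comparison. ULK2 had a mean of 16.1 ± 1.40 TPM in saline cows, 14.5 ± 1.02 at 4 h and 12.3 ± 2.90 at 12 h. ATG101 varied widely between cows, with 80.8, 125, 57.7 and 114 TPM in saline cows, 112, 151, 294 and 109 at 4 h and 88.6, 82.4, 99.5 and 81.2 at 12 h. Its 4 h mean was drawn up by cow6455, and its log2 fold change at 4 h was 0.88 (SE 0.33) with an edgeR adjusted p of 0.0973.

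At the nucleation step, the deepest fall of the list at 4 h and at 12 h was in UVRAG (chromosome 15, 55160620 to 55539167 of ARS-UCD1.2, the build of all positions here). UVRAG is the beclin 1 partner that directs the lipid kinase PIK3C3 to endosomes and autophagosome maturation. Its level was 59.3, 45.6, 75.4 and 58.8 TPM in saline cows, 27.3, 27.3, 17.1 and 31.7 at 4 h and 7.01, 7.42, 7.98 and 7.23 at 12 h. The 3 groups did not overlap, and the 12 h cows lay within 1 TPM of each other. UVRAG fell 2.33-fold at 4 h (log2 fold change -1.22, SE 0.18, edgeR adjusted p = 0.000836) and 6.56-fold at 12 h (log2 fold change -2.71, SE 0.19, edgeR adjusted p = 2.47e-06). The fall from 4 h to 12 h passed the test as well (log2 fold change -1.49, SE 0.18, edgeR adjusted p = 6.42e-05).

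ATG14 (chromosome 10, 67833062 to 67879072), the alternative partner that takes the same lipid kinase to the site where autophagosomes form, went the other way from a much lower level. It was at 4.05, 5.12, 5.36 and 5.40 TPM in saline cows, 5.56, 6.80, 6.33 and 4.89 at 4 h and 6.56, 7.74, 6.93 and 6.71 at 12 h, and all 12 h cows lay above all controls. ATG14 rose 1.72-fold at 12 h (log2 fold change 0.79, SE 0.14, edgeR adjusted p = 0.000626), with a log2 fold change of 0.27 at 4 h (edgeR adjusted p = 0.215). The difference between 12 h and 4 h passed the edgeR test (adjusted p = 0.00907) and did not pass in limma on log2(TPM + 1) (0.201).

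The subunits that both partners share passed the test in no comparison. BECN1 (beclin 1) had a mean of 61.0 ± 2.01 TPM in saline cows, 52.5 ± 5.71 at 4 h and 48.9 ± 6.29 at 12 h. PIK3C3 (VPS34), the catalytic subunit, had a mean of 18.9 ± 0.340, 18.7 ± 2.79 and 14.4 ± 1.72 TPM. At 12 h their log2 fold changes were -0.02 (SE 0.08) and -0.03 (SE 0.09). In TPM all 12 h cows lay below all controls for both genes, and limma on log2(TPM + 1) called both lower at 12 h (adjusted p 0.0222 for BECN1 and 0.0188 for PIK3C3).

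The ratio of UVRAG to ATG14 within a library does not depend on the scale between libraries. It was 14.6, 8.91, 14.1 and 10.9 in controls, 4.91, 4.01, 2.71 and 6.49 at 4 h and 1.07, 0.959, 1.15 and 1.08 at 12 h. The groups did not overlap, and at 12 h the levels of both genes were about equal. This and the other ratios below were chosen after the values had been seen and are given without a test.

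Of the genes that supply and mark membrane, WIPI1 (chromosome 19, 61752501 to 61782684), which reads the lipid mark on the forming membrane, rose late. It was at 22.1, 17.3, 17.2 and 21.8 TPM in saline cows, 18.3, 21.1, 19.7 and 25.0 at 4 h and 35.1, 51.2, 46.5 and 39.6 at 12 h. The 4 h cows overlapped the controls, and all 12 h cows lay above both. WIPI1 rose 2.72-fold at 12 h (log2 fold change 1.44, SE 0.12, edgeR adjusted p = 6.79e-06), with a log2 fold change of 0.14 at 4 h (edgeR adjusted p = 0.471), and the difference between the times passed the test (log2 fold change 1.305, SE 0.12, edgeR adjusted p = 1.45e-05).

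Its paralog WIPI2, which recruits the ATG16L1 complex, was at 37.4, 37.4, 37.9 and 41.4 TPM in saline cows, 46.3, 51.9, 40.7 and 51.3 at 4 h and 38.0, 35.2, 37.9 and 36.6 at 12 h. At 12 h it overlapped the controls. WIPI2 passed the test at 4 h (log2 fold change 0.33, SE 0.10, edgeR adjusted p = 0.0423) and barely at 12 h (log2 fold change 0.26, SE 0.10, edgeR adjusted p = 0.0493), and its 12 h direction turned to -0.06 in limma on log2(TPM + 1). The 4 h call of WIPI2 was lost without any 1 of the control cows, without 4 h cow5341 or cow6456 and without 12 h cow7475 (adjusted p 0.0533 to 0.0971), and under 4 alternatives (0.0532 to 0.0659). The 12 h call was lost without control cow4285, cow6464 or cow7367 and without 12 h cow5266, cow7382 or cow7475 (0.0535 to 0.164), with no count minimum (0.0510) and in a fit of only the groups compared (0.0634). The ratio of WIPI1 to WIPI2 was 0.508 ± 0.0636 in controls, 0.443 ± 0.0492 at 4 h and 1.17 ± 0.225 at 12 h.

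The lipid transfer proteins ATG2A and ATG2B, which feed lipid from the endoplasmic reticulum into the growing membrane, diverged. ATG2B (chromosome 21, 61171215 to 61248583) was at 9.50, 9.52, 8.29 and 9.54 TPM in saline cows, 11.9, 14.5, 7.95 and 11.02 at 4 h and 2.80, 4.83, 3.93 and 3.72 at 12 h. All 12 h cows lay below all others. ATG2B fell 1.96-fold against controls (log2 fold change -0.97, SE 0.15, edgeR adjusted p = 0.000260) and 2.46-fold against 4 h (log2 fold change -1.301, SE 0.15, edgeR adjusted p = 5.19e-05), with a log2 fold change of 0.33 at 4 h (edgeR adjusted p = 0.160).

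ATG2A was at 10.9, 11.51, 11.4 and 12.5 TPM in saline cows, 15.1, 17.98, 13.5 and 14.6 at 4 h and 13.7, 12.4, 13.4 and 13.4 at 12 h. All 4 h cows lay above all controls, and at 12 h the lowest cow fell just inside the control range. ATG2A rose at 4 h (log2 fold change 0.43, SE 0.11, edgeR adjusted p = 0.0237) and at 12 h (log2 fold change 0.51, SE 0.11, edgeR adjusted p = 0.00263), the latter not in limma on log2(TPM + 1) (log2 fold change 0.18, adjusted p 0.190). The 4 h call of ATG2A was lost without control cow4285 or cow7367 or 4 h cow5341 (adjusted p 0.0501 to 0.0602) and with the length offset (0.0894). The ratio of ATG2A to ATG2B was 1.26 ± 0.102 in controls, 1.38 ± 0.211 at 4 h and 3.61 ± 0.963 at 12 h. ATG9A, the scramblase that spreads lipid between membrane leaflets, passed the test in no comparison, at 24.0 ± 3.28, 25.8 ± 1.71 and 18.8 ± 1.25 TPM.

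**Figure D3:**
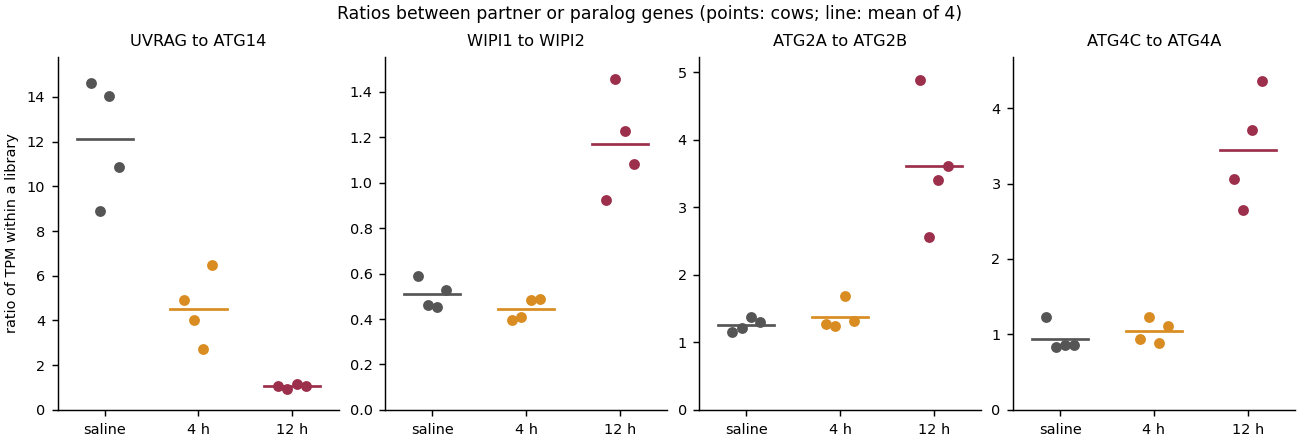
Ratio of TPM between 2 partner or paralog genes within each cow's library, with a line at the mean of 4 cows and axes that start at 0. UVRAG to ATG14 falls from a mean of 12.1 to 1.06, while ATG2A to ATG2B and ATG4C to ATG4A rise to means of 3.61 and 3.45 at 12 h.

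Of the enzymes that attach ubiquitin-like proteins, ATG3 transcripts rose and ATG10 transcripts fell at 12 h, the latter a call that depended on single cows. Their common activator ATG7 did not pass the test. ATG3, the E2-like enzyme that hands ATG8 proteins to their lipid, was at 40.0, 41.1, 37.0 and 37.2 TPM in saline cows, 40.2, 41.9, 39.2 and 39.1 at 4 h and 43.7, 58.5, 51.2 and 45.4 at 12 h. All 12 h cows lay above all others, and ATG3 rose against controls (log2 fold change 0.64, SE 0.07, edgeR adjusted p = 3.67e-05) and against 4 h (log2 fold change 0.57, SE 0.07, edgeR adjusted p = 9.18e-05).

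ATG10, the E2-like enzyme for ATG12, was at 3.25, 4.26, 3.77 and 4.05 TPM in saline cows, 3.32, 3.09, 2.78 and 3.33 at 4 h and 2.31, 2.75, 2.09 and 1.71 at 12 h. The 12 h cows lay below all others, and ATG10 fell (log2 fold change -0.55, SE 0.18, edgeR adjusted p = 0.0216) on only 27 to 102 counts per library. The call of ATG10 was lost without control cow6464 or cow7514, without 12 h cow7475 and with no count minimum (adjusted p 0.0528 to 0.0738). ATG7, the E1-like activator of both routes, had a mean of 14.6 ± 2.03, 11.8 ± 0.547 and 11.6 ± 1.12 TPM, with a log2 fold change at 12 h of -0.01 (SE 0.11).

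ATG12, the ubiquitin-like protein joined to ATG5, was at 80.0, 67.3, 68.9 and 63.4 TPM in saline cows, 63.7, 56.1, 53.6 and 62.0 at 4 h and 64.5, 72.2, 78.7 and 65.4 at 12 h. Its 12 h cows overlapped the controls in TPM and lay above all 4 h cows. ATG12 passed the test at 12 h against controls (log2 fold change 0.32, SE 0.09, edgeR adjusted p = 0.0121) and against 4 h (log2 fold change 0.54, SE 0.09, edgeR adjusted p = 0.000580), the latter not in limma on log2(TPM + 1) (log2 fold change 0.25, adjusted p 0.0564). Against controls the call of ATG12 was lost without 12 h cow7382 (adjusted p 0.0581), with the length offset (0.0534) and in limma on log2(TPM + 1) (log2 fold change 0.01, adjusted p 0.960). Its partners ATG5, at 22.3 ± 0.545, 18.1 ± 3.07 and 16.8 ± 0.947 TPM, and ATG16L1, at 17.7 ± 1.18, 19.7 ± 1.37 and 14.9 ± 2.59 TPM, passed in no comparison. Their log2 fold changes at 12 h were -0.10 (SE 0.12) and 0.06 (SE 0.09).

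The 4 ATG4 cysteine proteases that trim ATG8 proteins before conjugation and free them afterwards had a summed level in TPM of 84.6 ± 3.67 in saline cows, 85.9 ± 4.63 at 4 h and 87.7 ± 6.62 at 12 h. That sum depends on the scale between libraries, since on TMM-scaled counts ATG4B, ATG4C and ATG4D were called higher at 12 h and ATG4A lower. ATG4A (chromosome X, 56720113 to 56799908) was at 9.66, 13.4, 13.2 and 13.3 TPM in saline cows, 10.0, 7.40, 8.86 and 9.23 at 4 h and 4.22, 6.11, 4.05 and 3.92 at 12 h. All 12 h cows lay below all others. ATG4A fell 2.16-fold at 12 h (log2 fold change -1.11, SE 0.17, edgeR adjusted p = 0.000233) and was lower at 12 h than at 4 h (log2 fold change -0.67, SE 0.17, edgeR adjusted p = 0.00665), with a log2 fold change of -0.45 at 4 h (edgeR adjusted p = 0.0922). PSMD10, a gene whose coordinates overlap those of ATG4A, fell as well at 12 h (log2 fold change -0.80, edgeR adjusted p = 0.00639).

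ATG4C (chromosome 3, 82756143 to 82852335) was at 11.9, 11.1, 11.4 and 11.4 TPM in saline cows, 9.42, 9.13, 7.89 and 10.3 at 4 h and 12.9, 16.2, 15.01 and 17.1 at 12 h. The 3 groups did not overlap, with the 4 h cows lowest and the 12 h cows highest. ATG4C rose at 12 h against controls (log2 fold change 0.80, SE 0.09, edgeR adjusted p = 2.79e-05) and against 4 h (log2 fold change 1.10, SE 0.09, edgeR adjusted p = 1.03e-05). Its fall at 4 h (log2 fold change -0.30, SE 0.09, edgeR adjusted p = 0.0391) was lost without any 1 of the control cows, without any 1 of the 4 h cows, without 12 h cow6314 or cow7382 (adjusted p 0.0517 to 0.107) and under 6 alternatives (0.0530 to 0.117). The ratio of ATG4C to ATG4A was 0.946 ± 0.192 in controls, 1.04 ± 0.158 at 4 h and 3.45 ± 0.748 at 12 h.

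ATG4D was at 16.5, 20.9, 22.0 and 26.1 TPM in saline cows, 19.9, 20.1, 17.2 and 18.6 at 4 h and 30.9, 23.4, 25.0 and 35.5 at 12 h. The 12 h cows overlapped the highest controls and lay above all 4 h cows. ATG4D rose at 12 h (log2 fold change 0.73, SE 0.17, edgeR adjusted p = 0.00315) and from 4 h to 12 h (log2 fold change 0.88, SE 0.17, edgeR adjusted p = 0.00113).

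ATG4B, in other mammals the most active of the 4 on most ATG8 proteins, was at 43.2, 38.8, 36.5 and 38.9 TPM in saline cows, 47.7, 55.3, 47.2 and 45.6 at 4 h and 39.9, 37.0, 39.3 and 40.5 at 12 h. The 4 h cows lay above all others. ATG4B passed the test at 4 h (log2 fold change 0.35, SE 0.10, edgeR adjusted p = 0.0388) and at 12 h (log2 fold change 0.31, SE 0.10, edgeR adjusted p = 0.0229), where its direction turned to -0.0046 in limma on log2(TPM + 1). The 4 h call of ATG4B was lost without control cow6464, cow7367 or cow7514, without 4 h cow5341 or cow6455 and without 12 h cow7382 or cow7475 (adjusted p 0.0508 to 0.101) and with the length offset (0.0641). The 12 h call was lost without control cow7367 or 12 h cow5266, cow7382 or cow7475 (0.0558 to 0.0885). ATG4B held 46.6% of the family's TPM in saline cows, 56.9% at 4 h and 44.8% at 12 h, and ATG4A held 14.6%, 10.4% and 5.27%. ATG4C held 13.6%, 10.7% and 17.5% and ATG4D 25.2%, 22.0% and 32.5%.

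The ATG8 proteins are the ubiquitin-like proteins that coat the membrane and bind cargo receptors. All 5 listed genes rose at 12 h, beside 23.6% of all tested genes. The calls of these 5 were kept under every alternative and with every cow left out. Their summed TPM was 1195 ± 32.6 in controls, 1514 ± 154 at 4 h and 1877 ± 125 at 12 h, 1.27 and 1.57 times the control mean. The ranges were 1165 to 1241, 1386 to 1736 and 1781 to 2048 TPM, without overlap. The sum depends on the scale between libraries. At 12 h GABARAP was at 1.36 times the control mean in TPM and rose 1.69-fold on TMM-scaled counts. At 4 h the mean TPM was 2.09 times that of controls for GABARAPL1, 1.34 for GABARAPL2 and 1.16 for MAP1LC3A. It was 1.02 for GABARAP and 0.953 for MAP1LC3B.

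GABARAPL1 (chromosome 5, 99764511 to 99773990) had the largest fold change of the family at both times. It was at 195, 208, 225 and 185 TPM in saline cows, 365, 648, 365 and 319 at 4 h and 424, 387, 469.8 and 563 at 12 h. All treated cows lay above all controls, and 4 h cow5341 stood far above the other 4 h cows. GABARAPL1 rose 2.14-fold at 4 h (log2 fold change 1.10, SE 0.22, edgeR adjusted p = 0.00716) and 2.82-fold at 12 h (log2 fold change 1.496, SE 0.23, edgeR adjusted p = 0.000222). Its share of the family's TPM was 17.0% ± 1.43 in controls, 27.5% ± 6.61 at 4 h and 24.4% ± 2.39 at 12 h, and that of GABARAP was 45.8% ± 2.98, 37.1% ± 4.30 and 39.6% ± 2.02.

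GABARAPL2 (chromosome 18, 2868273 to 2878363) was at 167, 182, 186 and 179.7 TPM in saline cows, 226, 259, 247 and 228 at 4 h and 352, 279, 357 and 332 at 12 h. The 3 groups rose in order without overlap. GABARAPL2 rose 2.31-fold at 12 h (log2 fold change 1.21, SE 0.13, edgeR adjusted p = 3.04e-05) and from 4 h to 12 h (log2 fold change 0.75, SE 0.13, edgeR adjusted p = 0.000709). Its rise at 4 h (log2 fold change 0.46, SE 0.13, edgeR adjusted p = 0.0383) was lost without any 1 of the control cows, without 4 h cow5341 or cow6455 and without 12 h cow7475 (adjusted p 0.0519 to 0.0927).

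GABARAP was at 537, 588, 495 and 568 TPM in saline cows, 564, 535, 570.1 and 559 at 4 h and 678, 755, 726 and 818 at 12 h. Its 4 h cows lay within the control range and its 12 h cows above both. GABARAP rose at 12 h (log2 fold change 0.76, SE 0.10, edgeR adjusted p = 6.88e-05) and from 4 h to 12 h (log2 fold change 0.70, SE 0.10, edgeR adjusted p = 0.000137), with a log2 fold change of 0.06 (SE 0.10) at 4 h.

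MAP1LC3A was at 220.1, 189, 195 and 158 TPM in saline cows, 217, 221, 239 and 209 at 4 h and 249, 272, 243 and 244 at 12 h. It rose at 12 h (log2 fold change 0.72, SE 0.11, edgeR adjusted p = 0.000217), and all 12 h cows lay above all others. Between 4 h and 12 h, MAP1LC3A passed in edgeR (log2 fold change 0.47, SE 0.11, edgeR adjusted p = 0.00387) and did not pass in limma on log2(TPM + 1) (adjusted p 0.141).

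MAP1LC3B, the LC3 most often used as a marker of autophagosomes, was at 73.3, 74.1, 78.6 and 74.4 TPM in saline cows, 71.6, 73.1, 70.6 and 71.0 at 4 h and 84.8, 88.3, 95.0 and 91.1 at 12 h. The 4 h cows lay just below the controls and the 12 h cows above both. MAP1LC3B rose at 12 h (log2 fold change 0.57, SE 0.09, edgeR adjusted p = 0.000217) and from 4 h to 12 h (log2 fold change 0.61, SE 0.09, edgeR adjusted p = 0.000168), with a log2 fold change of -0.04 (SE 0.09) at 4 h.

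**Figure D4:**
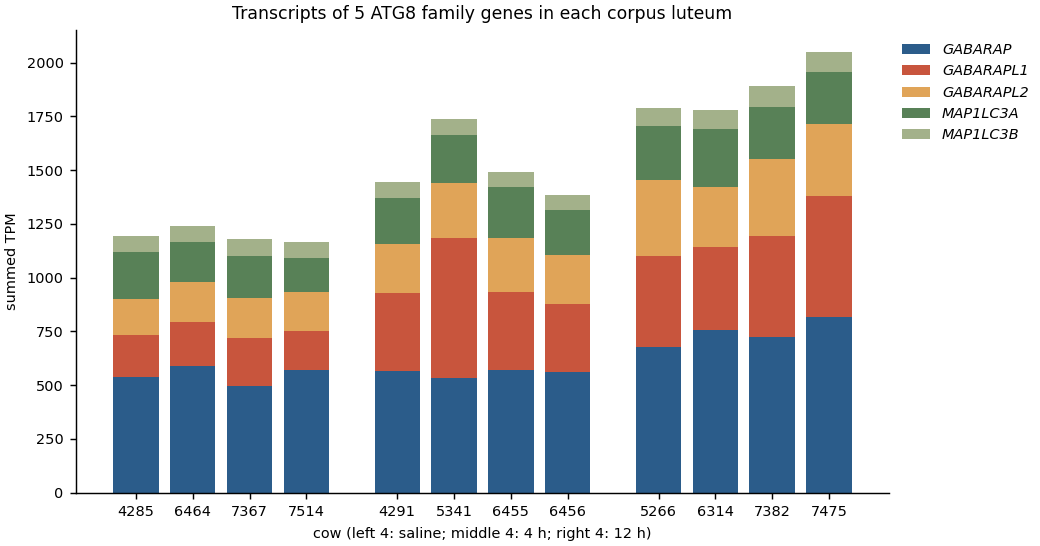
Summed TPM of 5 ATG8 family genes in each cow's library, stacked by gene, on an axis that starts at 0. The saline cows sum to 1165 to 1241 TPM and the 12 h cows to 1781 to 2048, and the GABARAPL1 segment widens from a mean share of 17.0% to 27.5% at 4 h and 24.4% at 12 h.

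Of the cargo receptors, SQSTM1 (p62, chromosome 7, 1433632 to 1508188), which binds ubiquitinated cargo and is itself degraded by autophagy, rose at both times. It was at 251, 314, 183 and 229 TPM in saline cows, 353, 387, 296 and 356 at 4 h and 390.4, 377, 362 and 335 at 12 h. The 12 h cows lay above all controls, and 4 h cow6455 lay inside the control range. SQSTM1 rose 1.46-fold at 4 h (log2 fold change 0.54, SE 0.15, edgeR adjusted p = 0.0293) and 1.87-fold at 12 h (log2 fold change 0.90, SE 0.15, edgeR adjusted p = 0.000378). The 4 h call of SQSTM1 was lost without control cow4285, cow7367 or cow7514, without 4 h cow5341 or cow6456 and in a fit of only the groups compared (adjusted p 0.0522 to 0.0815).

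OPTN (optineurin, chromosome 13, 27800706 to 27840043), a receptor for damaged mitochondria and bacteria, fell. It was at 87.7, 89.6, 97.9 and 108 TPM in saline cows, 68.8, 57.3, 56.4 and 71.0 at 4 h and 54.7, 59.1, 62.5 and 58.1 at 12 h. Every treated cow lay below every control, and the treated groups overlapped. OPTN fell 1.48-fold at 4 h (log2 fold change -0.57, SE 0.10, edgeR adjusted p = 0.00316) and 1.32-fold at 12 h (log2 fold change -0.40, SE 0.10, edgeR adjusted p = 0.00607).

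NBR1 and TAX1BP1, receptors that act beside SQSTM1, passed the edgeR test in no comparison. NBR1 had a mean of 65.6 ± 4.13 TPM in saline cows, 61.5 ± 11.9 at 4 h and 45.0 ± 4.28 at 12 h, and TAX1BP1 of 79.4 ± 6.23, 77.9 ± 10.7 and 55.2 ± 6.29 TPM. In TPM all 12 h cows lay below all controls for both, and limma on log2(TPM + 1) called both lower at 12 h (NBR1 log2 fold change -0.54, adjusted p 0.00338, and TAX1BP1 -0.52, adjusted p 0.00236), where edgeR gave -0.25 and -0.20. The ratio of SQSTM1 to NBR1 was 3.76 ± 1.01 in controls, 5.74 ± 0.781 at 4 h and 8.22 ± 1.196 at 12 h.

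The transcription factors TFEB, TFE3 and MITF belong to the family that switches on lysosomal and autophagy genes when MTOR complex 1 is inactive, chiefly by moving into the nucleus, which transcript levels do not show. TFE3 was at 39.0, 36.1, 36.4 and 37.9 TPM in saline cows, 51.2, 61.4, 53.4 and 53.1 at 4 h and 31.3, 33.0, 32.1 and 32.8 at 12 h. All 4 h cows lay above all controls and all 12 h cows below them. TFE3 rose 1.502-fold at 4 h (log2 fold change 0.59, SE 0.09, edgeR adjusted p = 0.000914) and was lower at 12 h than at 4 h (log2 fold change -0.48, SE 0.09, edgeR adjusted p = 0.000721). Against controls its 12 h log2 fold change was 0.10 in edgeR (adjusted p = 0.334) and -0.20 in limma on log2(TPM + 1) (adjusted p 0.0477).

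MITF (chromosome 22, 31617620 to 31843533), best known from pigment cells and mast cells, was at 3.34, 6.05, 5.72 and 7.27 TPM in saline cows, 5.70, 7.75, 4.39 and 6.25 at 4 h and 1.57, 1.16, 2.44 and 1.64 at 12 h. All 12 h cows lay below all others. MITF fell 2.66-fold at 12 h (log2 fold change -1.41, SE 0.30, edgeR adjusted p = 0.00204) and was lower than at 4 h (log2 fold change -1.54, SE 0.30, edgeR adjusted p = 0.00127), from counts of 22 to 163 per library. TFEB passed in no comparison, at 7.45 ± 0.559 TPM in saline cows, 8.10 ± 0.996 at 4 h and 7.30 ± 0.445 at 12 h, with a log2 fold change at 12 h of 0.28 (SE 0.13).

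In all, 25 of the 36 genes passed the test in at least 1 of the 3 comparisons and 11 in none. Those 11 were ULK2, ATG101, BECN1, PIK3C3, ATG9A, ATG5, ATG7, ATG16L1, NBR1, TAX1BP1 and TFEB. On the log2(TPM + 1) scale limma called 7 of them lower at 12 h, beside 38.9% of all tested genes. The 7 were ULK2, BECN1, PIK3C3, ATG9A, ATG5, NBR1 and TAX1BP1. Of all tested genes, 14.2% passed the edgeR test at 4 h, 48.9% at 12 h and 46.7% between the times. The share of all tested genes that passed in at least 1 comparison was not computed. The log2 fold changes of members that did not pass ranged from -0.45 to 0.88 at 4 h and from -0.25 to 0.28 at 12 h.

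Transcript length was examined because the weighted mean effective length was lower in the 12 h libraries than in controls. Across the 36 genes, Spearman's correlation between effective length and the 12 h log2 fold change was -0.19, and across all 14481 genes it was -0.20. The points share the same 12 libraries, and genes are not independent replicates. With that length offset the members' value was -0.03, and 18 members rose and 6 fell at 12 h, beside 23.7% and 22.9% of all tested genes. At 4 h the offset gave 4 risers and 4 fallers, beside 7.58% and 8.73%. Between 12 h and 4 h it gave 17 members higher and 5 lower, beside 25.8% and 19.8%.

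**Figure D5:**
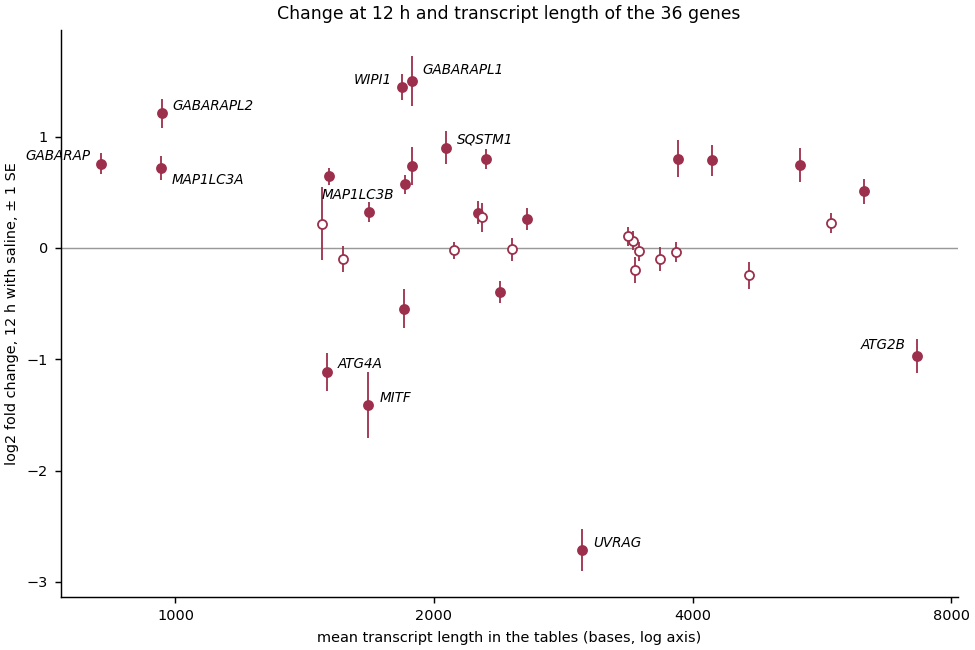
Log2 fold change at 12 h (TMM-scaled counts, ± 1 SE) against mean transcript length in bases on a log axis, 1 point per gene, filled where the edgeR adjusted p was under 0.05. The listed ATG8 genes lie above 0, at mean lengths from 820 bases (GABARAP) to 1884 (GABARAPL1). The longest gene, ATG2B, lies at -0.97, while ATG4A (1502 bases) at -1.11 and MITF (1678 bases) at -1.41 are shorter than GABARAPL1. Spearman's correlation with effective length was -0.19 (n = 36).

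The tables also give a mean transcript length for each gene in each library, which moves when the estimated mixture of isoforms moves. It varied in 20 members. At 12 h it lay apart from controls in 5 of them, beside 21.6% of the 6680 tested genes whose length varied, and at 4 h in 0, beside 3.32%. It was longer at 12 h for RB1CC1 (5738 to 5783 bases in controls, 5849 to 5869 at 12 h), PIK3C3 (3335 to 3492 and 3537 to 3582), ATG16L1 (3382 to 3415 and 3422 to 3433) and TAX1BP1 (3383 to 3421 and 3446 to 3459). It was shorter for ATG10 (1859 to 1900 and 1782 to 1855).

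The coordinates of 8 members overlap another gene, and strand use in the counting is not given in the sources used here, so reads may have been shared. These were ATG14 with FBXO34, ATG2B with GSKIP, WIPI1 with ARSG, ATG4A with PSMD10, ATG4D with KRI1, ATG16L1 with SCARNA6, GABARAPL2 with ADAT1 and SQSTM1 with MGAT4B and MRNIP. MGAT4B was the most abundant of these neighbours, at 96.3 TPM in saline cows and 86.0 at 12 h, with a log2 fold change of 0.15 at 12 h (edgeR adjusted p = 0.392). PSMD10 fell with ATG4A at 12 h, as given above. ADAT1 fell at 12 h (log2 fold change -0.52, edgeR adjusted p = 0.0398), while GABARAPL2 rose. GSKIP was lower at 4 h (-0.28, edgeR adjusted p = 0.0408) and rose at 12 h (0.27, edgeR adjusted p = 0.0173), while ATG2B fell at 12 h. MRNIP fell at 4 h (-0.81, edgeR adjusted p = 0.0197), while SQSTM1 rose. Reads of the ATG8 and ATG4 paralogs are apportioned by estimation, which can blur differences within a family.

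A wider list of 72 autophagy genes outside the 36 was read from the same fit. Of these 25 rose and 25 fell at 12 h, beside 23.6% and 25.3% of all tested genes, and 7 rose and 6 fell at 4 h, beside 8.65% and 5.59%. The same shares apply to the smaller lists below. The 72 genes had a median log2 fold change of -0.03 at 12 h. In limma on log2(TPM + 1) the 12 h counts were 10 and 37, beside 10.4% and 38.9%.

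Among 12 other initiation and nucleation genes, 6 rose and 4 fell at 12 h. VMP1, a membrane scramblase of the endoplasmic reticulum needed for autophagosome formation, went from a mean of 78.8 TPM in saline cows to 120 at 4 h and 212 at 12 h. Its log2 fold change was 0.65 at 4 h (SE 0.14, edgeR adjusted p = 0.0104) and 1.74 at 12 h (SE 0.14, edgeR adjusted p = 6.79e-06). PIK3R4, the regulatory subunit of the lipid kinase, fell at 12 h (log2 fold change -0.63, edgeR adjusted p = 0.000178), and SH3GLB1 and ZFYVE1 rose by 0.50 and 0.51 on the log2 scale. Neither of these rises passed in limma on the TPM scales (pseudocount 1 or 0.1), where SH3GLB1 was at 0.18 (adjusted p up to 0.201) and ZFYVE1 at 0.20 to 0.21 (up to 0.0940). At 4 h, 3 of the 12 rose, WDR45B among them (log2 fold change 0.36, edgeR adjusted p = 0.00825).

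Of 5 other conjugation genes, 2 rose and 2 fell at 12 h. TP53INP2, a nuclear protein that binds LC3 and aids its exit from the nucleus, went from 56.9 TPM in saline cows to 12.3 at 12 h (log2 fold change -1.89, SE 0.19, edgeR adjusted p = 1.61e-05), while TP53INP1 rose by 0.93 on the log2 scale. MAP1LC3C, a further ATG8 gene, rose as well at 12 h (log2 fold change 0.997, edgeR adjusted p = 0.0441), from 71.6 ± 40.5 to 114 ± 6.25 TPM. That call of MAP1LC3C was lost without control cow7367 or cow7514, without 4 h cow6455, without 12 h cow5266, cow7382 or cow7475 (adjusted p 0.0529 to 0.101) and under 5 alternatives (0.0602 to 0.0727). With it the ATG8 sum was 1266 ± 68.5 TPM in saline cows, 1633 ± 195 at 4 h and 1991 ± 128 at 12 h. TECPR1 passed the test as lower at 4 h and at 12 h, by 0.41 and 0.32 on the log2 scale, and both calls depended on single cows. At 4 h that of TECPR1 was lost with 8 of the 12 cows left out in turn (adjusted p 0.0514 to 0.113; kept without control cow7367 or without 12 h cow5266, cow6314 or cow7475) and under 5 alternatives (0.0661 to 0.104). At 12 h it was lost with 9 of them left out (0.0765 to 0.177; kept without control cow7367, 4 h cow6455 or 12 h cow7475) and under 5 alternatives (0.0541 to 0.236).

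Of 13 other receptor genes, 2 rose and 2 fell at 12 h. RETREG1, the receptor for endoplasmic reticulum, rose from 3.85 to 10.7 TPM (log2 fold change 1.76, edgeR adjusted p = 3.05e-05) and BNIP3, a mitochondrial receptor, rose by 0.65 on the log2 scale. STBD1, a glycogen receptor, fell from 73.1 to 27.4 TPM. STBD1 was already lower at 4 h (log2 fold change -0.91, edgeR adjusted p = 0.0137), as was the kinase TBK1 (-0.42, edgeR adjusted p = 0.0212). The TBK1 call was lost without control cow6464, cow7367 or cow7514 or 4 h cow5341 (adjusted p 0.0502 to 0.0692) and under 2 alternatives (0.0509 to 0.0556).

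Of 13 genes for fusion with lysosomes, 4 rose and 6 fell at 12 h. The tether EPG5 fell from 4.64 to 1.16 TPM (log2 fold change -1.71, edgeR adjusted p = 6.31e-05) and PLEKHM1 by 0.67 on the log2 scale, while VPS16 rose by 0.46. In limma on the TPM scales the rise of VPS16 did not pass (log2 fold change 0.14, adjusted p up to 0.201). VAMP8, a SNARE of the autophagosome and lysosome, fell at 4 h (log2 fold change -0.55, edgeR adjusted p = 0.00469) and rose at 12 h (0.65, edgeR adjusted p = 0.000284), with means of 59.4, 39.4 and 75.2 TPM.

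MTOR complex 1 restrains autophagy, and of 24 genes of the complex and its control 9 rose and 9 fell at 12 h. The median log2 fold change of the 24 was 0.19 in edgeR, with a highest of 0.85, and -0.12 in limma on log2(TPM + 1). The 4 genes with the smallest p at 12 h, named next, all fell. MTOR itself went from 16.0 to 5.29 TPM (log2 fold change -1.31, SE 0.12, edgeR adjusted p = 1.17e-05). Its substrate adaptor RPTOR fell from 11.02 to 3.27 TPM (log2 fold change -1.46, SE 0.13, edgeR adjusted p = 9.52e-06). DEPTOR, an inhibitor of MTOR, fell from 26.9 to 6.55 TPM (log2 fold change -1.73) and FNIP2 from 10.2 to 3.56 TPM (log2 fold change -1.22). At 4 h the GTPase RHEB, which activates the complex, rose (log2 fold change 0.63, edgeR adjusted p = 0.0125) and the inhibitor SESN1 fell (-0.94, edgeR adjusted p = 0.00862).

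Of 5 other transcription regulators of autophagy, 2 rose and 2 fell at 12 h. FOXO3 fell from 12.5 to 2.11 TPM (log2 fold change -2.27, SE 0.30, edgeR adjusted p = 8.67e-05). FOXO4 and TFEC, a further member of the TFEB family, passed the test as higher, by 0.54 and 1.24 on the log2 scale. The FOXO4 call was lost without control cow7367 or cow7514 or 12 h cow7382 (adjusted p 0.0584 to 0.0920) and in limma on the TPM scales (log2 fold change 0.22 to 0.24, adjusted p up to 0.341). The TFEC call was lost without control cow4285, cow7367 or cow7514 and without 12 h cow5266, cow6314 or cow7382 (0.0517 to 0.0785), and its log2 fold change ranged from 1.02 to 1.81 over cows left out. It was also lost without 4 h cow6455 and 12 h cow6314 together (0.0836). FOXO1 rose at 4 h (log2 fold change 0.52, edgeR adjusted p = 0.0238). The FOXO1 call was lost without control cow7367 or 4 h cow4291 or cow5341 (adjusted p 0.0540 to 0.0627) and in limma on the TPM scales (up to 0.0851).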

How the data were processed

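For each of 12 corpora lutea (1 per cow, 4 per group) the authors deposited 1 table of 27270 genes with the expected count that RSEM estimated (not always whole), the TPM and the FPKM, and a mean transcript length per gene in bases. The submitters' processing notes name STAR 2.5, RSEM 1.3 and the build ARS-UCD1.2; settings, filters and strand use are not given in the sources used here. TPM depends on which transcripts fill a library, so a shift in a few abundant transcripts moves every TPM.

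After rounding of the expected counts, a gene was tested if 4 or more libraries held 10 counts of it. All 3 groups were fitted together in edgeR 4.0.16 (TMM, quasi-likelihood test, Benjamini-Hochberg over 14481 genes, threshold 0.05). TPM was used for levels, family shares and ratios, without a test.

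All 36 members are named, with full statistics for those past the threshold in at least 1 comparison. Of each wider list, up to 4 genes called at 12 h and 2 at 4 h with the smallest p are named. Some genes that this rule names are not reported here. Members and lists were chosen with earlier results of these data known. Of the 73 wider-list names, 72 were found and tested; ZKSCAN3 was not analysed here.

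Alternatives were DESeq2 1.42.0, which the study names, RLE scaling, no count minimum, a minimum of 50, a fit restricted to 2 groups, limma 3.58.1 on log2(TPM + 1) and log2(TPM + 0.1), no mitochondrially encoded genes, an offset that removes the trend with transcript length in each library (spline, 5 degrees of freedom), each cow left out, and 4 h cow6455 with 12 h cow6314 left out. The length in the offset was the effective length of each gene, averaged over the libraries. Levels and shares were also taken from FPKM, and levels from TMM-scaled CPM. The fits were tested on simulated data. Tables and figures were made in Python 3.11.15 with pandas 2.3.3, numpy 2.4.6 and matplotlib 3.10.9, and models in R 4.3.3.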

Additional observations from a re-analysis of the deposited data

Results flagged for a closer look

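Among the 108 groups of 4 cows examined (36 genes in 3 groups), 7 held a cow that stood apart from the other 3 in TPM. Chance gives about 1 in 20 groups. These were GABARAPL1 in 4 h cow5341 (648 TPM, the others 319 to 365), ATG4A in control cow4285 (9.66, the others 13.2 to 13.4) and in 12 h cow6314 (6.11, the others 3.92 to 4.22), and ATG2B in control cow7367 (8.29, the others 9.50 to 9.54). The rest were WIPI2 in control cow7514 (41.4, the others 37.4 to 37.9), ATG5 in 12 h cow7475 (18.2, the others 16.2 to 16.5) and TFEB in 12 h cow5266 (7.96, the others 7.01 to 7.15).

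In the edgeR test of the difference between 12 h and 4 h, on the log2 scale, 46.7% of all tested genes passed. For 15 of the 36 members the effect at 12 h differed from that at 4 h in this test. The effect at 12 h was higher for 10, by 1.305 for WIPI1, 1.10 for ATG4C, 0.88 for ATG4D, 0.75 for GABARAPL2, 0.70 for GABARAP, 0.61 for MAP1LC3B, 0.57 for ATG3, 0.54 for ATG12, 0.51 for ATG14 and 0.47 for MAP1LC3A. It was lower for 5, with differences of -1.54 for MITF, -1.49 for UVRAG, -1.301 for ATG2B, -0.67 for ATG4A and -0.48 for TFE3.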

How the results depend on the processing

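Over the alternatives the number of members that rose at 12 h against controls ranged from 13 to 18, and over cows left out from 14 to 19. The number that fell at 4 h ranged from 2 to 4 and over cows left out from 2 to 3. The number that rose at 4 h (9) was 4 with the length offset and ranged from 2 to 9 over cows left out. The number that fell at 12 h (6) was 14 in limma on either TPM scale (pseudocount 1 or 0.1), and 5 to 7 over cows left out. The number higher at 12 h than at 4 h (10) was 17 with the length offset and 10 to 12 over cows left out. The number lower (5) was 15 in limma on either scale and 5 to 6 over cows left out. With pseudocount 1, limma called 7 members higher between the times. Of all 14481 tested genes it called 5194 lower and 1304 higher. On both TPM scales the 12 h log2 fold changes of WIPI2 (-0.0589 and -0.0603) and ATG4B (-0.0046 and -0.0047) turned sign. The TPM scales also move the median of all genes at 12 h to -0.25 and -0.30. What sets the length trend was not tested. No paired analysis was possible because the cow numbers are not shared between groups. Precision is limited by 4 cows per group and, for MITF, ATG10, ATG4A and ATG14, by low counts.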
